A study of Mus musculus with 24 samples.

Results

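Binding of the POU-domain transcription factor Oct4 (encoded by Pou5f1) was compared between asynchronous and mitotic mouse embryonic stem cells. The material was 3 chromatin immunoprecipitation (ChIP-seq) peak lists of one sequencing project: 1 asynchronous library and 2 mitotic libraries, out of 24 samples and 17 libraries with a peak list in the series. All peaks of the 3 lists that shared at least 1 bp were merged, which gave 6604 Oct4 regions out of 72156 merged regions over the 16 lists read, and each region was recorded by the lists that had a peak in it. All 3 libraries came from V6.5 embryonic stem cells (strain given as C57BL/6-129, age as E3.5) with no genetic alteration stated, and were made with the same Oct4 antibody (Santa Cruz SC-8628) after fixation in 1% formaldehyde for 10 min. Per the labels, the cells had been grown on irradiated feeders with serum and LIF and were then expanded on gelatin with an inhibitor of MEK1 and an inhibitor of Gsk3 before synchronization. The mitotic cells had received nocodazole, a drug that blocks spindle assembly, for 7 h and were detached by shaking. The labels give the dose as 100 ug/ml, a unit that could not be checked here. The purity of the mitotic cells was not given in the sources used here, and nothing states whether the mitotic libraries came from separate cultures.

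Oct4 binds an octamer element in DNA, and often does so beside Sox2, an HMG box factor, on a composite element in which a Sox site adjoins the octamer. Together with Nanog, the pair forms the core circuit that keeps stem cells pluripotent, and each gene of the circuit carries enhancers bound by the circuit's own factors. In mitosis chromosomes condense, most transcription stops and many factors leave the DNA. A factor found on its sites in mitotic chromatin is said to bookmark them.

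The 3 lists differed more between the mitotic libraries than between the states. The asynchronous list held 3347 peaks, the list of mitotic replicate 1 held 1246, and that of mitotic replicate 2 held 5282. The asynchronous value thus lay between the mitotic ones, whose mean was 3264 ± 2854 (SD, n = 2), and an exact two-sided permutation test over the samples gave p = 1, with 0.333 the smallest p that 1 library against 2 allows. Peaks in mitotic replicate 1 were weaker as well: the highest fold enrichment (signal over local background, as the authors deposited it) was 18.3 there, against 56.8 in the asynchronous list and 58.2 in mitotic replicate 2, and 9.47% of its peaks had a q above 0.05, against none in the other lists. Read depth was unknown, so no fold was compared between lists as a change, and a missing peak means only that none was listed. In the names of the peaks, the file of mitotic replicate 1 carries the number 2 and that of mitotic replicate 2 the number 1. The replicates are named here as the labels give them.

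When each list was cut to its 1246 strongest peaks by −log10 p, the share of merged regions held in common was 28.2% for the asynchronous list and mitotic replicate 1, 33.8% for the asynchronous list and mitotic replicate 2, and 33.7% for the mitotic replicates. At the same length, mitotic replicate 1 shared 29.9% with Sox2 mitotic replicate 2, more than it shared with the asynchronous Oct4 list. The other 8 pairs of an Oct4 and a Sox2 list shared between 17.8% and 23.5%. The part of this likeness in the results on Sox2 below was not tested, and values with each mitotic library alone are therefore given there. The cell type was checked by H3K27ac, an acetylated histone mark of active promoters and enhancers. The libraries of the mark were of other projects than the Oct4 libraries. All 6 stem cell markers (Pou5f1, Sox2, Nanog, Esrrb, Zfp42 and Tfcp2l1) held a peak of the mark in each of its 4 libraries, while between 0 and 2 of 7 feeder fibroblast markers did. Of 3 primitive endoderm markers, 1 held a peak of the mark in 1 library and 2 in each of the other libraries, and of 3 trophectoderm markers 1 did in each library. Of the 6 stem cell markers, 4 held a peak in the asynchronous Oct4 list and 3 in each mitotic one. No Oct4 list had a peak in the span of a feeder marker or of the 3 primitive endoderm markers, and 1 of 3 trophectoderm markers (Cdx2) had a peak in mitotic replicate 2.

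Promoters of 6 genes show what Oct4 regions with the factor's own element look like. The first 4, Nanog, Nrarp, Gm34201 and Pipox, lay in regions with a peak in all 3 lists and hold the composite element (the Sox letters TTGT, then any base, then ATGCAAA of the octamer). The promoter of Zfp42, which encodes the stem cell marker Rex1, had peaks in the asynchronous list and in mitotic replicate 2. That of Atf7ip had a peak in the asynchronous list alone, and both of these hold the octamer ATGCAAAT without the composite. Other promoters were unlike these examples. Those of Gadd45g, Liph and Zfp428 lay in regions of all 3 lists and hold the octamer without the composite. That of Astn1 had peaks in the asynchronous list and mitotic replicate 2 and holds the composite. Each line gives the 250 bases before a RefSeq gene start (GRCm38.p6, the mm10 build), 5′ to 3′ on the strand of the gene, with capitals for the composite or the octamer on either strand.
Nanog: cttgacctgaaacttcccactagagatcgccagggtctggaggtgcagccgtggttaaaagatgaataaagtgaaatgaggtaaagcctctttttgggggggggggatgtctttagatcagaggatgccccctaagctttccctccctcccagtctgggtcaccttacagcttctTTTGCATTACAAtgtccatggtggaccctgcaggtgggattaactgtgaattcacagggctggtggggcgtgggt
Nrarp: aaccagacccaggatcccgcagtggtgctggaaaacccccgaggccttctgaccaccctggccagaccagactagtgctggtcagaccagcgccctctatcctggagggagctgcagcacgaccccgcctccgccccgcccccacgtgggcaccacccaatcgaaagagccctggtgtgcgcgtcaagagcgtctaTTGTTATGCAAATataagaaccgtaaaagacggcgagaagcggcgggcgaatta
Gm34201: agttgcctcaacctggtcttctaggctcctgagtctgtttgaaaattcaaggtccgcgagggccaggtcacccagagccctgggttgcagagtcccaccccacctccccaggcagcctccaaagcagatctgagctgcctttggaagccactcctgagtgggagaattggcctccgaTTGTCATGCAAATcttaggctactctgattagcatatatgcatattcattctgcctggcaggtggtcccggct
Pipox: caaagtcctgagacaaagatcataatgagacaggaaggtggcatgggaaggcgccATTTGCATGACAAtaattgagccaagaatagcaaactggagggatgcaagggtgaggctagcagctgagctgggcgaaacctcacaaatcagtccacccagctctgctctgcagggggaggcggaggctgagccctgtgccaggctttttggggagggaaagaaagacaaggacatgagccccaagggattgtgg
Zfp42: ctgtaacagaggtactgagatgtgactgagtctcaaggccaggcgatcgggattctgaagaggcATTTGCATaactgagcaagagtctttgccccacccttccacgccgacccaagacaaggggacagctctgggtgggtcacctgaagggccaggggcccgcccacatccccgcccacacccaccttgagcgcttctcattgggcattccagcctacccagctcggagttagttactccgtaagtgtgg
Atf7ip: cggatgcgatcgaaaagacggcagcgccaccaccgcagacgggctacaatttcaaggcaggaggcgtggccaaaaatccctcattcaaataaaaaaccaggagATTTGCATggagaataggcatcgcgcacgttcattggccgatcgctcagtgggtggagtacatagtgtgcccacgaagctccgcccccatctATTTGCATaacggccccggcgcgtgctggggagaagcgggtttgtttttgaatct
The Nanog stretch is chr6:122707239-122707488 on the plus strand, and its composite begins 75 bases before the start. The Nrarp stretch is chr2:25180508-25180757 (plus strand) and that of Pipox chr11:77893873-77894122 (minus strand). Gm34201, a predicted gene, is at chr15:84622164-84622413 (minus strand), Zfp42 at chr8:43307010-43307259 (minus strand) and Atf7ip at chr6:136518601-136518850 (plus strand). The Atf7ip promoter thus holds 2 octamers in a region that no mitotic list contained.

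About 1 in 4 of the asynchronous regions were found in both mitotic libraries. Of the 3338 regions with an asynchronous peak, 820 were kept, meaning that both mitotic lists had a peak (24.6%, 95% Wilson interval 23.1 to 26.1). Another 1311 were intermediate, with a peak in 1 mitotic list (39.3%, 37.6 to 40.9), and 1207 were lost, with a peak in neither (36.2%, 34.5 to 37.8). These intervals cover counting error only. Mitotic replicate 1 recovered 25.7% of the asynchronous regions and mitotic replicate 2 recovered 62.7%, in the order of the lengths of their lists. With all 3 lists cut to their 1246 strongest peaks, the shares were 43.9% and 50.5% of 1245 asynchronous regions. The intermediate regions were almost all of one kind: 1273 were absent from mitotic replicate 1 and 38 from mitotic replicate 2. With mitotic replicate 2 alone as the mitotic list 2093 regions were kept, and with mitotic replicate 1 alone 858. Of the 3266 regions without an asynchronous peak, 294 were mitotic-only, with a peak in both mitotic lists (9.0%), 2887 were in mitotic replicate 2 alone and 85 in mitotic replicate 1 alone. Few of the lost regions sat just beside a mitotic peak: 23 of 1207 (1.91%) lay within 1 kb of a peak of mitotic replicate 2 and 6 within 1 kb of a peak of mitotic replicate 1.

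**Figure D1:**
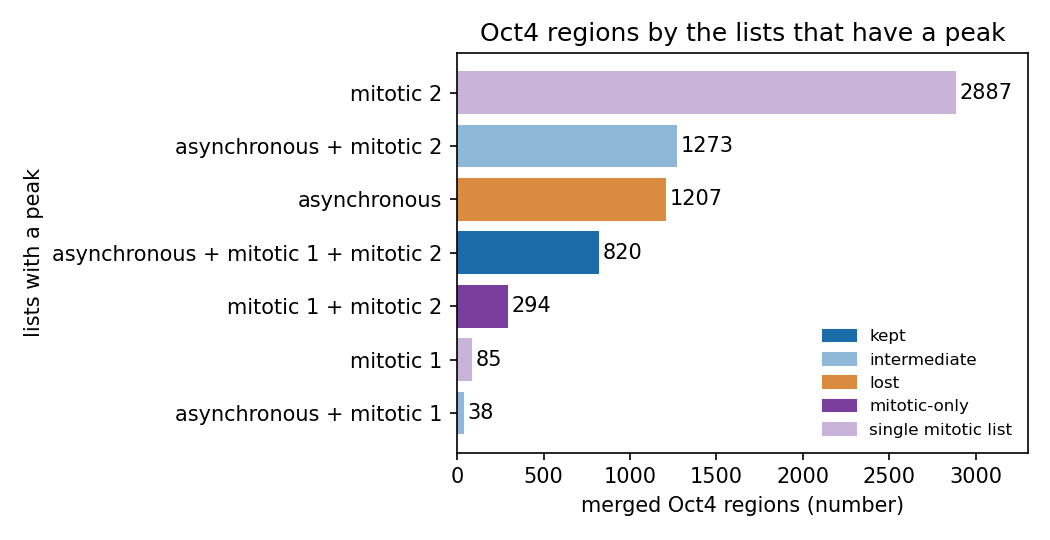
Number of merged Oct4 regions (x axis) for each combination of lists with a peak (y axis), coloured by class. The longest bar is the 2887 regions of mitotic replicate 2 alone, followed by 1273 shared by the asynchronous list and mitotic replicate 2, and the 820 kept regions rank below the 1207 lost ones.

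Strong asynchronous regions were found in mitosis far more often than weak ones. From the weakest to the strongest decile by the asynchronous −log10 p, recovery went from 9.31% to 63.2% in mitotic replicate 1 and from 38.1% to 98.8% in mitotic replicate 2. In the strongest decile 3 of 334 regions were lost, against 202 of 333 in the weakest. The same held from the mitotic side. By quintile of −log10 p in mitotic replicate 1, between 51.0% (weakest) and 87.5% (strongest) of its regions had an asynchronous peak, and in mitotic replicate 2 between 21.0% and 71.9%. Over the 820 kept regions, the order of the deposited fold was alike between mitotic replicates (Spearman's rho 0.55) and between the asynchronous list and mitotic replicate 2 (0.53), and less so between the asynchronous list and mitotic replicate 1 (0.26). These are descriptions across regions, which share the libraries, and carry no test. The asynchronous peaks themselves were wider in kept regions, with a median of 401.5 bp, against 310 for intermediate and 239 for lost ones.

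**Figure D2:**
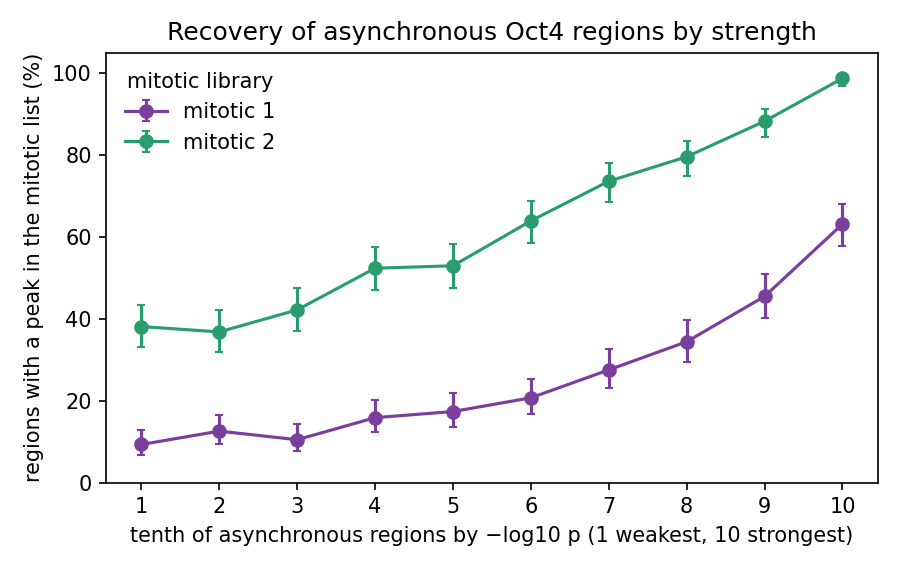
Percent of asynchronous Oct4 regions with a peak in each mitotic library (y axis) by decile of the asynchronous −log10 p (x axis, 1 weakest); bars are 95% Wilson intervals. Mitotic replicate 1 ends at 63.2% and mitotic replicate 2 at 98.8% in the strongest decile.

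The strongest kept region was in Abca4, which encodes a lipid transporter of photoreceptors (chr3:122145154-122146102). Its fold was 56.8 in the asynchronous list, 18.3 in mitotic replicate 1 and 58.2 in mitotic replicate 2, the highest value of each of the 3 lists, and all 3 Sox2 lists had a peak there. The region at the start of Gm34201 shown above (chr15:84621807-84622628) had folds of 56.4, 8.84 and 22.8 in the same order. The other 4 kept regions chosen by their lowest rank over the lists lay 0.006 kb from Rif1, which encodes a regulator of replication timing (folds of 21.7, 8.70 and 16.0), 76.5 kb from Unc5cl (24.7, 11.2 and 32.5), 259 kb from Diaph3 (17.7, 12.9 and 23.1) and 22.9 kb from Sall1, a zinc finger factor gene (21.3, 10.5 and 21.9). All 5 had peaks in all 3 Sox2 lists and in all 4 H3K27ac lists. The strongest regions in the asynchronous list and mitotic replicate 2 but not in mitotic replicate 1 lay by Grp, Kdm2b, Lmtk2, Jag2 and Flrt1, and none of these had a peak in any Sox2 list. The region 16.3 kb from Lmtk2 (chr5:144083464-144084099) had a fold of 41.2 in the asynchronous list and 24.5 in mitotic replicate 2. That in Jag2, which encodes a Notch ligand, had folds of 24.7 and 18.7. The strongest lost regions were weaker, with asynchronous folds of 10.5 in Atp6v0a4, 11.2 in each of Stmn2 and Tln2, 10.8 in Tspan11 and 9.08 in Abca1, a cholesterol transporter gene. The one in Tspan11 had a peak in the asynchronous Sox2 list, and the other 4 had none in the Sox2 lists.

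Oct4 regions kept in both mitotic lists were mostly regions where Sox2 also had a peak. At least 1 Sox2 list had a peak in 712 of the 820 kept regions (86.8%), but in 2488 of all 5397 that either mitotic Oct4 list contained (46.1%), and in 28.8% of the 2887 in mitotic replicate 2 alone. The single asynchronous Sox2 list had a peak in 69.5% of the kept Oct4 regions (66.3 to 72.6), 34.9% of the intermediate ones (32.4 to 37.6) and 11.9% of the lost ones (10.2 to 13.9). The corresponding shares were 80.2%, 46.0% and 12.0% for Sox2 mitotic replicate 1 and 64.6%, 20.1% and 3.15% for Sox2 mitotic replicate 2. Of the lost regions 990 of 1207 had no peak in any Sox2 list (82.0%), against 108 of the 820 kept ones (13.2%). The gap was present at each level of strength. Within quintiles of the asynchronous −log10 p, the asynchronous Sox2 list had a peak in 53.5% to 77.8% of kept and 8.82% to 22.0% of lost regions. Within the strongest quintile, the 448 Oct4 regions with a peak in any Sox2 list were recovered at 69.0% in mitotic replicate 1 and 97.8% in mitotic replicate 2. The 220 without one, at a median −log10 p of 21.2 against 20.8, were recovered at 24.5% and 85.0%. The direction was thus the same in each mitotic library. In this quintile the gap was wider in mitotic replicate 1, noted above for its overlap with a Sox2 list. Over all asynchronous regions the gap in percentage points was wider in mitotic replicate 2. There, mitotic replicate 1 recovered 45.1% of regions with a peak in any Sox2 list and 7.30% of those without. The shares in mitotic replicate 2 were 85.4% and 41.2%. With mitotic replicate 2 alone, the asynchronous Sox2 list had a peak in 48.4% of the kept and 12.7% of the lost regions. With mitotic replicate 1 alone the shares were 68.1% and 23.7%.

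**Figure D3:**
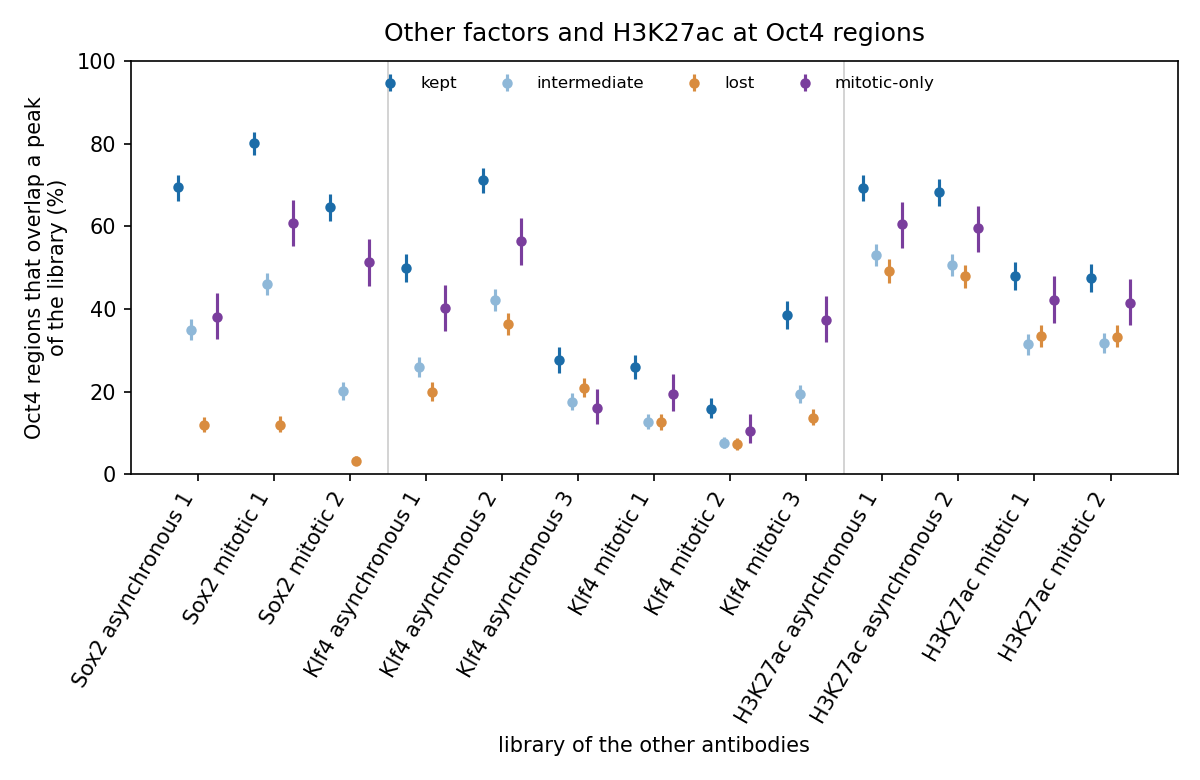
Percent of Oct4 regions (y axis) that overlap a peak of each Sox2, Klf4 and H3K27ac library (x axis), for kept, intermediate, lost and mitotic-only regions; points are shares and bars are 95% Wilson intervals. Kept regions are above lost ones for all 13 libraries, from 80.2% against 12.0% in Sox2 mitotic replicate 1 to 27.6% against 21.0% in Klf4 asynchronous replicate 3.

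Oct4 regions at gene starts were lost more often than those farther away, unless Sox2 was there too, though not at each level of strength. Starts came from a RefSeq table without chromosome 18, so 3243 of the 3338 asynchronous regions were used. Of these 356 lay within 1 kb of a start, and 59.8% of them were lost (54.7 to 64.8), against 33.5% of the 2887 farther away (31.8 to 35.2). These shares were not split by strength. In the weakest quintile of the asynchronous −log10 p, 3.33% of kept and 24.9% of lost regions were near a start. In the strongest quintile the shares were alike, at 9.43% (6.79 to 12.9) and 10.3% (4.06 to 23.6). Near a start, the 288 regions without an asynchronous Sox2 peak were lost at 70.8%, and the 68 with one at 13.2%. Away from starts the same shares were 45.9% of 1822 and 12.2% of 1065. H3K27ac was common at start regions with or without Sox2: 79.4% and 82.3% had a peak in both asynchronous lists of the mark, against 61.0% of the distal regions with Sox2 and 39.5% of those without. The start regions without Sox2 had a median −log10 p of 6.60, against 13.2 for those with it. Away from starts the medians were 7.59 without Sox2 and 10.0 with it.

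**Figure D4:**
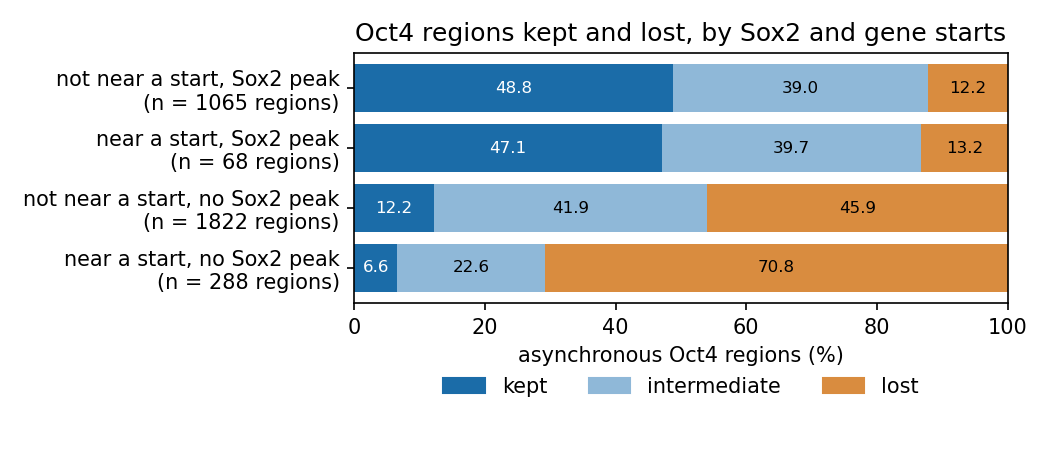
Percent of asynchronous Oct4 regions that were kept, intermediate or lost (x axis) in 4 groups by distance to a RefSeq start (near is within 1 kb) and by the asynchronous Sox2 list; the number of regions stands beside each bar. Lost regions make up 12.2% and 13.2% of the groups with Sox2 and 45.9% and 70.8% of those without.

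Among start regions of the asynchronous list, letters of the Oct4 element were commoner in those that were kept. Windows of 300 bp, from 250 before to 50 after each RefSeq start, were searched on both strands, and 32817 windows of 26994 genes could be used. The composite was in 12 of all windows (0.0366%), and 6 of these lay in asynchronous Oct4 regions. Among the windows that overlapped a region, it was in 5 of 33 kept ones (15.2%, 6.65 to 30.9), 1 of 59 intermediate ones (Astn1) and 0 of 177 lost ones. The 5 kept windows stand for the 4 genes printed above, since Nanog has 2 starts there. The octamer ATGCAAAT, part of whose letters the composite shares, was in 1.74% of all windows, 18.2% of the kept (6 of 33, 8.61 to 34.4), 8.47% of the intermediate and 3.39% of the lost ones. The octamer was not particular to kept regions: it was in 7 of 41 windows in regions of a single mitotic list (17.1%, 8.53 to 31.3) and in 2 of 6 mitotic-only windows. Neither of these groups held a composite. A Klf element, GGGTGTGG, was in 3.56% of all windows, 0 of 33 kept and 4 of 177 lost ones. Windows of alternative starts overlap, so these counts are not independent, and positions of the letters under the distal regions were not analysed here.

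The 4 kept promoters with a composite ranged widely in fold. That of Gm34201, with values given above, had one of the highest asynchronous folds of the list, and the other 3 were moderate. The Nanog region (chr6:122707229-122707643) had folds of 7.81 in the asynchronous list, 6.66 in mitotic replicate 1 and 10.6 in mitotic replicate 2. For Nrarp, which encodes a regulator of Notch signalling, the values were 11.7, 4.90 and 6.76 (chr2:25180481-25181112), and for Pipox, an enzyme gene, 10.2, 4.12 and 8.55 (chr11:77893806-77894372). Each of these 3 was thus in the lists of both states at a fold of over 4. The lost promoter region of Atf7ip, a gene for a chromatin cofactor, had an asynchronous fold of 7.14 (chr6:136518550-136518924), close to that of Nanog.

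The 2 other kinds of feature separated the classes less than Sox2 did. H3K27ac asynchronous replicate 1 had a peak in 69.4% of kept (66.2 to 72.4), 53.1% of intermediate and 49.2% of lost Oct4 regions (46.4 to 52.0). Both mitotic H3K27ac lists had one in 42.8% of kept, 27.2% of intermediate and 29.7% of lost regions, so lost regions were not below intermediate ones there. For Klf4, a zinc finger factor of the same circuit, the shares depended on the library. They were 71.2% of kept and 36.3% of lost regions in asynchronous replicate 2, the longest Klf4 list, but 27.6% and 21.0% in asynchronous replicate 3. Of the asynchronous Klf4 libraries, only replicate 3 was of the same project as the Oct4 libraries. When only Klf4 peaks with a −log10 q of at least 5 were used, the latter shares were 17.4% and 15.6%, and their intervals overlapped. The gap was wider in other Klf4 libraries under this cut: 32.8% and 9.69% in asynchronous replicate 1, and 58.0% and 24.5% in asynchronous replicate 2. In Klf4 mitotic replicate 3, also of the project of the Oct4 libraries, the shares were 22.4% and 6.79%. Mitotic replicates 1 and 2 of Klf4 had 8.17% and 3.23%, and 1.71% and 1.08%.

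Most genes of the pluripotency circuit had an Oct4 region nearby in asynchronous cells, and about 1 in 3 of those regions were kept. The 3 lists of core circuit genes, naive transcription factors and stem cell markers held 38 genes, of which 23 had an asynchronous region within 20 kb (60.5%), against 13.7% of all 21887 protein-coding genes. Kept regions were found by 12 of the 38, against 3.35% of all genes. Of the 42 linked regions, 13 were kept (31.0%, 19.1 to 46.0), 19 intermediate and 10 lost. The interval of the kept share includes the 24.6% over all asynchronous regions. The members were chosen with earlier results known, and genes near each other share regions.

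Sox2, the gene, had the strongest region of the core circuit. A region 1.23 kb downstream (chr3:34653690-34654416), where an enhancer of the gene is known, had folds of 31.9 in the asynchronous list, 7.54 in mitotic replicate 1 and 16.6 in mitotic replicate 2. The weaker region 3.40 kb upstream (chr3:34646214-34646591) was kept too, with folds of 4.34, 5.63 and 6.60. The small one at the promoter (chr3:34649715-34649955, asynchronous fold 4.45) was lost, so the kept regions of Sox2 flank the gene and the lost one sits at its start. Nanog, which encodes the homeodomain factor of the circuit, had its promoter as its only region, with the values given above. At Pou5f1, the gene of Oct4 itself, the region 1.64 kb upstream (chr17:35503693-35504397), where the distal enhancer lies, was kept with folds of 15.7, 6.15 and 12.2. Tcf7l1, a repressor in the Wnt pathway, had a kept region in its span with folds of 7.58, 7.50 and 8.90, and a lost one downstream with 4.70. Nr0b1, which encodes a nuclear receptor without a DNA-binding domain, had a region 10.4 kb upstream with folds of 5.46 in the asynchronous list and 4.58 in mitotic replicate 2 and no peak in mitotic replicate 1. Both regions of Zscan10 were lost.

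Among the naive transcription factors, 10 of the 11 linked regions were in mitotic replicate 2 and 3 in mitotic replicate 1. Esrrb, which encodes an orphan nuclear receptor, had 4 asynchronous regions in its span. One was kept (chr12:86498726-86499224; folds 5.22, 5.73 and 5.38), and the other 3 were in mitotic replicate 2 but not in mitotic replicate 1, with asynchronous folds from 4.04 to 5.10. Klf2, a Krüppel-like factor gene, had a kept region 12.6 kb downstream with folds of 4.77, 7.20 and 6.94 and an intermediate one 7.58 kb upstream with 4.57 in the asynchronous list and 6.39 in mitotic replicate 2. It also had a mitotic-only region 2.54 kb upstream with folds of 6.44 and 6.20. Tfcp2l1, a naive factor gene, had a kept region 2.12 kb upstream with 4.86, 4.55 and 7.23. Zfp42 and Tfap2c each had 1 region, in the asynchronous list and mitotic replicate 2, with folds of 6.08 and 4.84 for Zfp42 and 10.7 and 4.80 for Tfap2c. The region of Prdm14 was lost. Tbx3, a T-box factor gene, had no asynchronous region but a mitotic-only one in its span (chr5:119679839-119680186) with folds of 5.43 and 5.76, where all 3 Sox2 lists had a peak.

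Of the 16 regions linked to stem cell markers, 5 were kept, 6 intermediate and 5 lost. The strongest kept one lay 4.52 kb from Jam2, which encodes a junction protein (chr16:84769042-84769607; folds 25.6, 9.95 and 14.6). The region 1.49 kb from Dppa3, a maternal factor gene, was kept as well (chr6:122624383-122624938; 8.28, 11.2 and 13.0), and no H3K27ac list in asynchronous cells had a peak there. A further kept region, in the span of Gdf3 and 17.5 kb from Dppa3, had 8.70, 6.49 and 5.70. Kept regions were also found by Tdh, a threonine-degrading enzyme gene (7.38, 5.03 and 3.54), and by Upp1, a uridine phosphorylase gene (7.76, 6.45 and 7.36). Utf1, a chromatin-associated stem cell factor gene, had one of the stronger asynchronous regions of the list (12.4) with 4.03 in mitotic replicate 2 and no peak in mitotic replicate 1. Of the 4 regions around Dppa5a, 2 were lost and 2 were in mitotic replicate 2. The single region shared by Dppa2 and Dppa4 was lost (asynchronous fold 6.28). Spp1 and L1td1 had mitotic-only regions with folds of 5.23 and 5.51, and 5.76 and 7.56. Of the remaining genes of the 3 lists with any Oct4 region, Sall4, Klf5, Fgf4, Lin28a, Tdgf1 and Dnmt3l had regions in mitotic replicate 2 alone, with folds from 3.68 to 5.28.

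**Figure D5:**
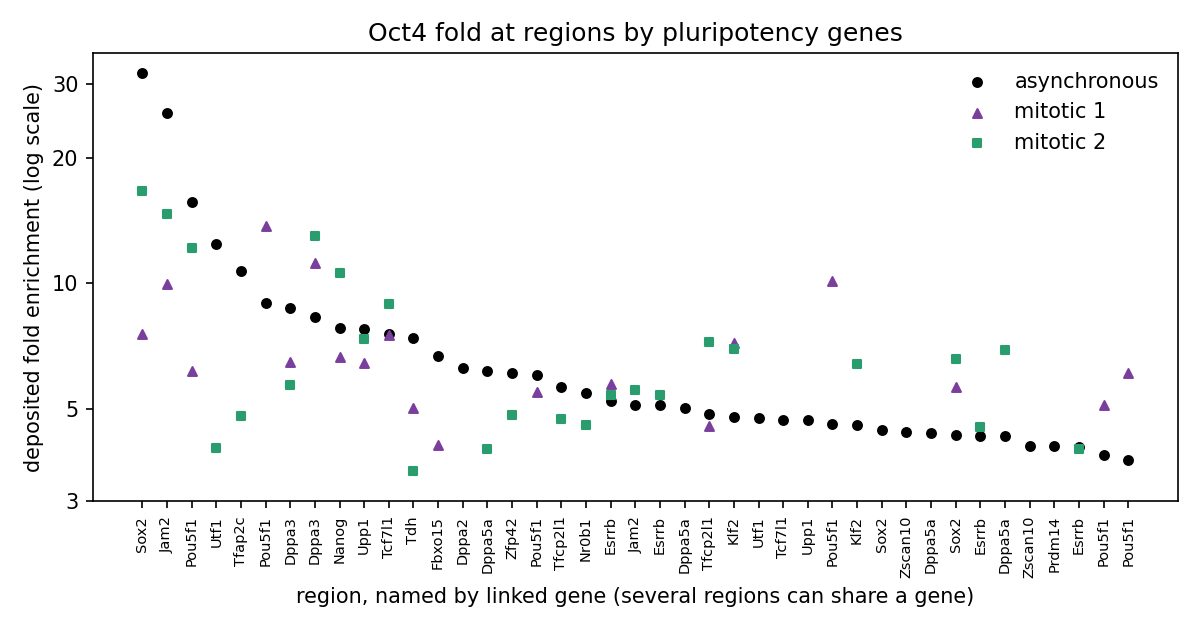
Deposited fold enrichment (y axis, log scale) in the 3 Oct4 lists at asynchronous regions linked to the pluripotency genes (1 of the 42 is not drawn), ordered by asynchronous fold (x axis); a missing marker means no peak in that list. The region downstream of Sox2 leads with 31.9, and 10 regions have an asynchronous marker only.

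A group of 5 regions over Pou5f1 itself stood out by their lists. The reads were not analysed here, so whether the signal at these regions came from the gene's own place in the genome was not tested. They lay in the promoter and span of the gene between chr17:35505772 and chr17:35510543, each had a peak in the asynchronous list and in mitotic replicate 1, and none had one in mitotic replicate 2. The region at the start (chr17:35505772-35506567) had folds of 8.98 in the asynchronous list and 13.7 in mitotic replicate 1, and the other 4 had 3.78 to 6.03 and 5.09 to 10.1. No Sox2 list had a peak in any of them, and both H3K27ac lists of asynchronous cells had one in all 5. Only 38 of the 6604 regions had this combination of lists. Its strongest member was the promoter of Pgk1, which encodes a glycolytic kinase (chrX:106186675-106187326). There the fold was 26.5 in the asynchronous list and 16.8 in mitotic replicate 1, with no peak in mitotic replicate 2. This region was in the strongest asynchronous decile, of which 98.8% had a peak in mitotic replicate 2. No Sox2 list had a peak at Pgk1, while 1 asynchronous Klf4 list had a fold of 13.4 and 1 mitotic Klf4 list a fold of 4.33. The promoter of the translation factor gene Eef1a1 (folds 5.19 and 4.68) and a region in Fbxo15, a stem cell marker gene (6.69 and 4.09), belonged here as well. Of the 42 pluripotency regions above 6 have this combination of lists. Without them, an alternative chosen after seeing the data in which the kept share can only rise, 13 of 36 were kept (36.1%). Among the 38 regions of this combination were also one by Chd7, a chromatin remodeller gene (6.61 and 5.96), and one by Slc39a14 (5.85 and 5.93). The latter had a peak in all 3 Sox2 lists.

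Of the regions linked to signalling genes and chromatin regulators, 43.8% (23.1 to 66.8) and 46.7% (24.8 to 69.9) were kept, against 24.6% of all. The first interval includes 24.6%, and the second begins just above it, at 24.8. Both cover counting error only, over 16 and 15 regions. Since the members were chosen with earlier results of these data known, the intervals cannot show an excess. The signalling regions had a median −log10 p of 18.8, and 45.2% of the asynchronous decile from 13.6 to 20.8 was kept. For the chromatin regulators the median was 9.32, and 26.9% of the decile from 8.94 to 10.9 was kept. The part of strength in these shares was not tested. Of 22 signalling genes 12 had an asynchronous region, and of the 16 regions 7 were kept, 5 intermediate and 4 lost. Genes of the Nodal pathway, which acts through Smad factors, led. Lefty1, an antagonist, had a kept region 0.943 kb away (chr1:180933611-180934079; folds 17.8, 6.17 and 8.35) and an intermediate one 9.94 kb away (13.1 in the asynchronous list and 5.97 in mitotic replicate 2). Lefty2 had a kept region with 16.5, 5.57 and 3.40, and Nodal one with 14.6, 5.93 and 12.3. Lifr, the LIF receptor gene, had 2 kept regions in its span, the stronger with 11.7, 8.66 and 16.4. Of 20 chromatin regulators 12 had a region, and of the 15 regions 7 were kept, 6 intermediate and 2 lost. The one in Tet2, a methylcytosine dioxygenase gene, was among the strongest of the asynchronous list (chr3:133524331-133525254; 36.1, 5.46 and 29.9). Rest, a repressor of neural genes, had 13.5, 9.79 and 17.6. Mtf2, a Polycomb partner gene, had a kept region with 7.40, 7.37 and 18.7, and its promoter region was lost (4.70). Phc1, also of the Polycomb group, had a kept region with 5.41, 4.71 and 6.05 and, closer to its start, an intermediate one with 9.55 and 4.93.

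Of 23 lineage regulators 5 had an asynchronous region (21.7%, against 13.7% of all protein-coding genes). All 8 linked regions were in mitotic replicate 2, and 1 was also in mitotic replicate 1 and hence kept (12.5%, 2.24 to 47.1, an interval that includes the 24.6% over all asynchronous regions). That one, in Zfhx3, had folds of 5.42, 7.95 and 9.87. Neurog1, a neural bHLH factor gene, had a region at its start with 11.6 in the asynchronous list and 3.28 in mitotic replicate 2. Tfap2a had 2 regions in its span (7.20 and 4.67, 4.57 and 4.90), and Myf5, a muscle factor gene, had one 2.08 kb upstream (6.99 and 7.92). Of 7 genes of primed pluripotency 3 had a region. Both regions of Foxd3, a forkhead factor gene, were kept (6.99, 4.49 and 6.72, and 4.70, 4.77 and 9.30), that of Otx2 was intermediate (4.62 and 3.68) and that of Sox3 lost (5.08). In the other lists 3 of 14 mitotic machinery genes (21.4%), 3 of 14 housekeeping genes (2 of the 3 being Pgk1 and Eef1a1, described above) and 1 of 14 feeder markers (7.14%) had a region. Bub1, a spindle checkpoint kinase gene, had a kept region 7.54 kb upstream (7.81, 7.44 and 5.85), and Incenp, of the chromosomal passenger complex, one 11.2 kb away (7.38, 4.77 and 9.64). The regions by Aurkb, Tbp and Col3a1 were lost, with asynchronous folds of 5.22, 4.18 and 5.46.

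Genes with several Oct4 regions did not share one outcome. Etl4, which spans 900.3 kb, had the most asynchronous regions, 9, of which 1 was kept, 7 were intermediate and 1 was lost. Cchcr1 and Tcf19 share the 6 regions of their neighbour Pou5f1. Tex14, a germ cell gene, had 6 regions, 5 of them lost and none with an asynchronous Sox2 peak, and Epha4, an ephrin receptor gene, lost 4 of 5. All 4 regions of Rfx4 were absent from mitotic replicate 1 and present in mitotic replicate 2. Auts2 and Zfp993 had 2 kept and 2 intermediate regions each, and Cdh13 had 1 kept, 2 intermediate and 1 lost. Of the 16 genes with at least 4 regions 11 had a kept one, against 733 of the 3006 genes with at least 1, a share that must grow with the number of regions.

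Mitotic-only regions had Sox2 peaks less often than kept ones and more often than lost ones. Among the 294, the asynchronous Sox2 list had a peak in 38.1% (32.7 to 43.8), against 69.5% of kept, 34.9% of intermediate and 11.9% of lost regions. At least 1 Sox2 list had a peak in 73.1% of them (67.8 to 77.9), against 86.8% of kept regions, and all 3 had one in 53.7% of kept regions and 27.6% of mitotic-only ones. H3K27ac asynchronous replicate 1 had a peak in 60.5% (54.9 to 66.0), against 69.4% of kept and 49.2% of lost regions, and 5.63% of the 284 on chromosomes with known starts lay within 1 kb of one. The asynchronous Oct4 list had a peak within 1 kb of only 2 of them. Chosen by rank over both mitotic lists, the strongest lay in Cldn34d, by Col19a1, and in Slc18b1, Tbx20 and Myo3a. That in Tbx20, a cardiac factor gene (chr9:24745010-24745347), had folds of 12.1 in mitotic replicate 1 and 8.90 in mitotic replicate 2. The one in Slc18b1 had 9.35 and 11.3 and was the only one of the 5 with a peak in the asynchronous Sox2 list. All 5 had a peak in Sox2 mitotic replicate 2, with folds from 4.02 to 8.75. Those of Col19a1, Tbx20 and Myo3a had none in the other Sox2 lists. Sox2 mitotic replicate 2 is the list noted above for its overlap with Oct4 mitotic replicate 1. Those of Col19a1 and Myo3a were 4713 and 2085 bp wide, far above the median of 334 bp, and no H3K27ac list had a peak in either. Whether the signal at these 2 regions came from their own place in the genome was not tested.

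The microRNA clusters of stem cells each had an Oct4 region close by, with different outcomes. These clusters were looked up after the other values had been seen. Both encode microRNAs with the same seed (bases 2 to 8), here in capitals, as given by RefSeq (GRCm38.p6), and are known to promote the fast cell cycle of stem cells.
miR-291a-3p: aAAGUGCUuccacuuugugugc
miR-294-3p: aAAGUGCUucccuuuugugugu
miR-295-3p: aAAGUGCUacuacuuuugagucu
miR-302b-3p: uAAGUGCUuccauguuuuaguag
miR-302d-3p: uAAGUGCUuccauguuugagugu
The cluster from Mir290a to Mir295 had 3 asynchronous regions within 20 kb. The nearest, 4.56 kb from Mir290a (chr7:3213360-3214065), was kept with folds of 5.47, 4.79 and 5.58, and the 2 farther ones, with asynchronous folds of 4.31 and 4.45, were lost. By contrast, the region 0.15 kb from Mir302b (chr3:127544620-127545078) was mitotic-only. Its folds were 5.00 in mitotic replicate 1 and 9.64 in mitotic replicate 2, and all 3 Sox2 lists had a peak there. A further region 14.6 kb from Mir302b had 6.23 in the asynchronous list and 7.08 in mitotic replicate 2. Thus the near region of one cluster was in all 3 Oct4 lists and that of the other was absent from the asynchronous list.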

How the data were processed

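Oct4 ChIP-seq peak lists of 1 asynchronous and 2 mitotic libraries were analysed, with those of Sox2 (1 and 2 libraries), Klf4 (3 and 3) and H3K27ac (2 and 2) as features. Per the submitters' processing notes the tools were cutadapt 1.8.1, Bowtie2 2.2.5, deepTools 2.3.6 and MACS2 2.1.1, and the build was mm10. The authors deposited 1 narrowPeak list per library, with each peak's enrichment as a fold (ratio) over local background and its p-value and q-value as −log10 values. No listed peak fell below a −log10 p of 5, and gaps in the numbers of the peak names show that 33.5% to 55.1% of the numbered Oct4 peaks were listed. The authors' rule for leaving peaks out, the role of each tool and the read depth are not given in the sources used here. Coordinates are 1-based.

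Peaks sharing at least 1 bp were merged, and a feature counted where its peak shared 1 bp or more with any part of a region, which favours wide regions. Shares carry 95% Wilson intervals. No test between states was made over regions, since 1 state had 1 library. Genes within 20 kb of a region, counted from either end of the gene span, were linked to it, so a region can count for several genes. The text names every gene of the 3 pluripotency lists with a region, up to 4 genes of each other list by −log10 p, the 10 with most regions and the 5 top regions of each combination of lists by their lowest percentile of −log10 p. The region of 1 gene is not reported here. The members and lists were chosen with earlier results of these data known. Gene spans, promoters and microRNAs came from RefSeq (GRCm38.p6). Python 3.11.15, numpy 2.4.6, pandas 2.3.3, scipy 1.17.1 and matplotlib 3.10.9 were used, and the merging and motif search were tested on simulated data. Exons, introns and the genome sequence of the regions were not analysed here.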

Additional observations from a re-analysis of the deposited data

How the results depend on the processing

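No paired analysis was possible because there was only 1 asynchronous Oct4 library. Under the other settings, 51 values stayed within the spread or within 1.5 times the main count, and 25 moved. The mitotic libraries differed widely, so staying within the spread says little about stability. The differences of −2101 and 1935 peaks given below counted as staying. So did a recovery of 14.3% in mitotic replicate 1 under the 50% overlap, against 25.7% in the main setting. The main kept and lost shares were 24.6% and 36.2% of 3338 asynchronous regions. A −log10 q of at least 2 left 189 mitotic-only regions. One of at least 5 left 198 kept (14.9% of 1325 asynchronous regions), 457 lost (34.5%) and 53 mitotic-only. With lists of equal length there were 435 kept (34.9% of 1245), 504 lost (40.5%) and 191 mitotic-only regions. Requiring an overlap of 50% of the asynchronous peak left 453 kept regions (13.5% of 3347). A peak in either mitotic list gave 2131 kept and 3266 mitotic-only regions. Without a mitotic library, the counts ranged from 858 to 2093 (kept), 1245 to 2480 (lost) and 379 to 3181 (mitotic-only), the smaller kept count being that without mitotic replicate 2. The mitotic mean minus the asynchronous number of peaks was −83, and it was 38 at a −log10 q of at least 2, −2101 without mitotic replicate 2 and 1935 without mitotic replicate 1. Ranked by fold, recovery rose by 44.6 (mitotic replicate 1) and 47.8 (mitotic replicate 2) percentage points from the weakest to the strongest decile, against 53.9 and 60.7 by −log10 p.

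The share of kept and lost regions with an asynchronous Sox2 peak was 45.1% and 3.40% with feature peaks of a −log10 q of at least 5, and without a mitotic library it ranged from 48.4% to 68.1% (kept) and from 12.7% to 23.7% (lost). For H3K27ac asynchronous replicate 1 the shares over the middle 200 bp were 57.4% (kept), 43.4% (intermediate) and 47.4% (lost). The gap between kept and lost regions was thus smaller there than over whole regions, and lost regions were above intermediate ones. Without a mitotic library the kept share was 59.0% to 69.8%. For Klf4 asynchronous replicate 3 the share was 17.4% (kept) and 15.6% (lost) with strict feature peaks, and 21.1% to 27.9% (kept) without a mitotic library. Lost regions near a start ranged from 12.4% to 17.9% without a mitotic library. The cause of these shifts was not tested.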

Other observations

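The 2887 regions of mitotic replicate 2 alone were neither kept, intermediate, lost nor mitotic-only. Their strongest members were far from weak: the fold was 39.4 at a region 368 kb from Arid1b (chr17:4626042-4626712), 48.4 in Ano2 (chr6:125876788-125877362), 32.1 at 47.2 kb from Sulf1, 30.2 at 192 kb from 1500009L16Rik and 29.0 at 154 kb from Gulp1. None of these 5 had a peak in an H3K27ac list, and the one by Arid1b was the only one with a peak in a Sox2 list (asynchronous fold 6.21). Over all 2887, at least 1 Sox2 list had a peak in 28.8%, H3K27ac asynchronous replicate 1 in 28.4%, and 3.66% of those on chromosomes with known starts lay within 1 kb of one. Of the 2887, 135 were on chromosome X (4.68%, 3.96 to 5.51), against 10 of the 820 kept (1.22%, 0.664 to 2.23) and 9 of the 1207 lost regions (0.746%, 0.393 to 1.41). The 85 regions of mitotic replicate 1 alone were led by those in Stxbp4 (fold 7.72), Cop1 (6.84) and Arhgef4 (4.50), one 267 kb from Tns1 (6.83) and one in Esco2 (6.83), and 40.0% of them had a peak in at least 1 Sox2 list.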
